A study of Mus musculus with 12 samples.

Results

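The forkhead box O (FoxO) factors and a set of their target genes were followed as 10 genes of a raw count table with 23337 gene symbols. The genes were taken by symbol alone: the factors Foxo1, Foxo3 and Foxo4, and the target genes Ccng2, Sesn1, Sesn3, Irs2, Insr, Pik3ip1 and Txnip. All 10 were found in the table, and all 10 were among the 12406 genes with enough counts to be tested. Their raw counts ran from 89 for Sesn1 to 3742 for Txnip in single libraries.

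Gene expression was measured by RNA sequencing of NU1 cells, a line of normal mouse urothelial cells that became immortal during passaging and that the labels give as wild type. Stag2, a subunit of the cohesin complex that holds and folds chromosomes, was knocked down with 1 lentiviral hairpin, labelled sh4, and control cells carried a non-targeting hairpin, labelled shNT. Both kinds of cells were taken while proliferating, or on day 7 of a treatment that makes them quiescent. That treatment was growth to confluence followed by complete medium with 1 µM rosiglitazone, which activates the nuclear receptor PPAR gamma, and 0.5 µM erlotinib, an inhibitor of the EGF receptor kinase. The medium of all 4 groups held 15% serum, EGF at 5 ng/ml and insulin with transferrin. Each group had 3 libraries, 1 each from experiments 5, 7 and 9, and each experiment was also 1 labelled batch. The study asked whether Stag2 helps to keep urothelial cells quiescent.

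FoxO proteins are transcription factors that insulin and growth factors hold in check. Signals through the insulin receptor and phosphatidylinositol 3-kinase (PI3K) activate the kinase AKT, which phosphorylates FoxO proteins and moves them from the nucleus to the cytoplasm. When that signal drops, FoxO proteins enter the nucleus and raise genes that slow the cell cycle, resist stress and restore insulin sensitivity, so several of their targets act back on the same pathway. FoxO activity is set mostly on the protein, and RNA levels report neither phosphorylation nor location in the cell.

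FoxO proteins bind the core GTAAACA and, as part of the insulin response element, CAAAACA. Both cores were searched on both strands of RefSeq promoters (build GRCm38.p6), from 250 bases before to 50 after each promoter's own start. So was the E-box CACGTG, bound by the glucose-sensing factors MondoA and ChREBP among others. For Sesn1, Irs2 and Ccng2 the promoter's start differs from the start of the gene span printed below. Promoters were matched for 8 of the 10 genes. The FoxO core was found in 2 of the 8, Txnip and Sesn1, against 4.05% of all 27025 genes with promoters in the same table. The insulin response element core was found in 2, Irs2 and Ccng2, against 7.2% of those genes, and the E-box in Irs2, against 8.09%. These matches are printed because they place a FoxO-type sequence near a promoter start of 4 of the target genes. Each run of 30 bases reads 5′ to 3′ on the gene's own strand, with the motifs in capitals.
Txnip: ttggaggcctgGTAAACAagggccaagtag
Sesn1: gaaccttctacTGTTTACcagccttttggg
Irs2: gagtCACGTGtTGTTTTGctcttagttcag
Ccng2: cgtcgcagactCAAAACAaaaacaaggggt
The Txnip sequence is chr3:96557825-96557854 on the plus strand, and its core starts 121 bases before the promoter's start. The Sesn1 sequence is chr10:41810585-41810614 on the plus strand, in 1 of its 2 promoters. Its core, on the opposite strand, starts 23 bases after that promoter's start. In Irs2, at chr8:11008948-11008977 on the minus strand, the E-box starts 44 bases before the promoter's start. The insulin response element core of Irs2, on the opposite strand, starts 37 bases before it. The Ccng2 core, in chr5:93267546-93267575 on the plus strand, starts 16 bases before the promoter's start. A match describes these letters only and is not evidence that a factor was bound.

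Library totals ran from 14524429 to 21987539 counts. Stag2 was measured at 113 to 145 CPM (counts scaled to a common library size) in proliferating control cells and at 24.6 to 33.3 in proliferating knockdown cells. In quiescent cells Stag2 was at 107 to 128 CPM in control and 9.43 to 15.3 in knockdown libraries. Every library therefore matched its hairpin label (edgeR log2 fold change -2.26 in proliferating and -3.32 in quiescent cells, adjusted p = 0.00121 and 3.39e-05). The labels of state and experiment are not checked by Stag2. Of 15 epithelial and urothelial markers, Krt7, Krt8, Krt18, Krt19 and Cdh1 were abundant in all groups, each at 652 CPM or more in every library. The urothelial factors Gata3, at 26.5 to 118 CPM, and Elf3, at 77.3 to 518, were also present. Both rose in quiescent control cells (edgeR log2 fold change 1.47 and 1.27, adjusted p = 0.0263 and 0.0443). They were the 2 of 12 tested markers that rose there, and 1 marker fell, beside 8.33% and 11.7% of all genes. With experiment fitted as a block 4 rose and 2 fell, beside 16.8% and 18.5%. In quiescent knockdown cells 2 rose and 2 fell without the block, beside 7.59% and 10.8%. Upk1a and Upk3a, markers of terminal urothelial cells, were low: Upk1a did not pass 3.94 CPM, and Upk3a had at most 1 count in any library. The basal factor Trp63 was at 0 in all 12 libraries. Levels of Epcam, Krt5, Grhl3, Upk1b and Upk2 are not reported here, nor are the markers that fell named. Summed markers of fibroblasts, smooth muscle and endothelium did not pass 2.27, 0.775 and 0.239 CPM in any library. The summed level of 6 immune markers was 15.5 to 33.2 CPM in proliferating control, 26.2 to 55.3 in proliferating knockdown, 39.6 to 61.8 in quiescent control and 110 to 169 in quiescent knockdown libraries. Most of that sum was Csf1r, while Cd3e was at 0 in all libraries, and the part of these markers in the results below was not tested. Libraries of the same experiment deviated together from their group means, so the fit with experiment as a block is given wherever it changed a call among the 10 genes or the counts of a gene list for quiescence in control cells. With 3 libraries a group from 1 cell line, p-values measure the spread between these experiments.

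Per kilobase of exon, Txnip was the most abundant of the 10 genes, at a mean over groups of 37.6 CPM per kb, and Sesn1 the least, at 1.85. Between them came Pik3ip1 at 13.6, Irs2 at 11.0 and Ccng2 at 10.2 CPM per kb. Foxo4 at 8.01, Foxo3 at 7.87, Insr at 6.12, Foxo1 at 5.52 and Sesn3 at 3.28 CPM per kb followed. The order was not firm between neighbours. Foxo4 was above Foxo3 in 6 of 12 libraries and Irs2 above Ccng2 in 7, and no gene was above the next in more than 10 of the 12.

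**Figure D1:**
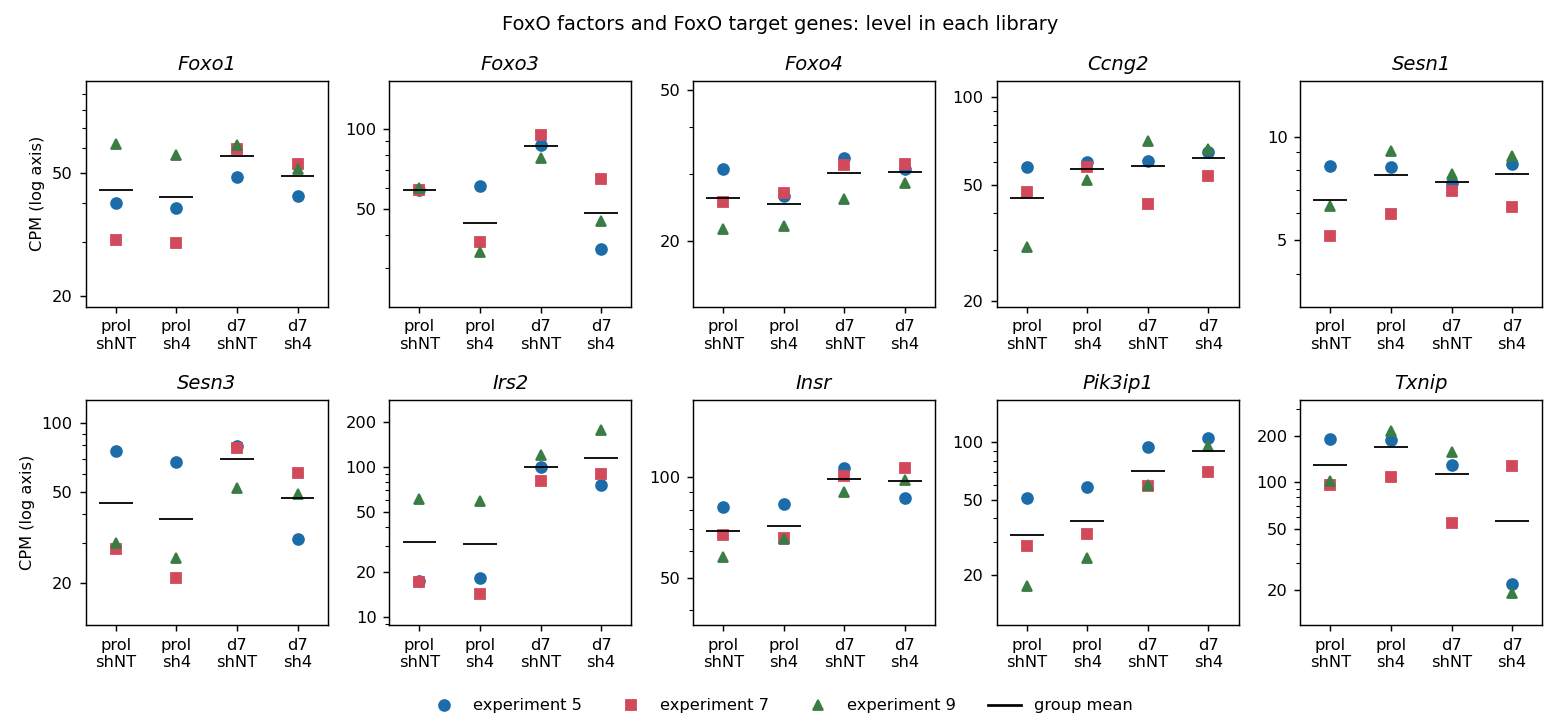
Level of each of the 10 genes in CPM (vertical axes) in the 12 libraries, by group; points are libraries, marked by experiment, and bars are group means. Irs2, Insr and Pik3ip1 are higher in both quiescent groups than in the proliferating group with the same hairpin, with no overlap, while the quiescent knockdown libraries of Txnip are spread from 19.1 to 127.9 CPM.

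None of the 3 transcription factors passed the threshold in any comparison of the edgeR fit to all 12 libraries. Foxo3 differed most between knockdown and control cells. Foxo3 (chromosome 10, 42181841 to 42276755, minus strand, GRCm38), the factor most studied in stress resistance and quiescence, was at 58.7, 58.8 and 60.2 CPM in proliferating control cells of experiments 5, 7 and 9, and at 87.0, 94.5 and 77.6 in quiescent control cells. With the knockdown, Foxo3 was at 60.9, 37.5 and 34.5 CPM while proliferating and at 35.3, 64.8 and 45.1 in quiescence. All 3 quiescent control libraries were above every other library of the study. Among the knockdown cells experiment 5 was the highest of the proliferating and the lowest of the quiescent libraries.

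The fitted log2 fold change of Foxo3 from proliferating to quiescent control cells was 0.54 ± 0.24 (SE, n = 3 per group), with an edgeR adjusted p of 0.127. When only the libraries of those groups were fitted it was 0.55 with an adjusted p of 0.0238, which passed. Between quiescent knockdown and quiescent control cells it was -0.84 ± 0.24, a level 0.56 times that of the control, with a 95% interval from -1.36 to -0.32. Its adjusted p was 0.17 in edgeR and 0.0711 with the experiment block, while DESeq2 gave 0.0344. Of the 7 alternatives to the edgeR fit, leaving aside those without 1 library, DESeq2 was the one in which it passed the threshold of 0.05. Within experiments 5, 7 and 9 the log2 difference was -1.30, -0.54 and -0.78, and leaving out any 1 library kept the fitted value between -1.10 and -0.66. In proliferating cells the corresponding differences were 0.05, -0.65 and -0.80, with a fitted -0.42 ± 0.24 and an adjusted p of 0.9998. The difference between those knockdown effects was -0.42 ± 0.33, with an interval from -1.15 to 0.31, so an effect specific to quiescence was not shown. From bulk RNA, less Foxo3 RNA in every cell and fewer cells that make it cannot be told apart.

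Foxo1 (chromosome 3, 52268336 to 52353221, plus strand), the factor best known for control of glucose metabolism, was at 40.1, 30.4 and 61.8 CPM in proliferating control cells and at 48.4, 59.7 and 61.5 in quiescent control cells. With the knockdown, Foxo1 was at 38.5, 29.7 and 57.3 CPM while proliferating and at 42.0, 53.3 and 51.4 in quiescence. The ranges of all groups overlapped, and experiment 7 carried most of the difference between states. Foxo1 was lower with the knockdown in all 3 experiments and in both states, but by 0.03 to 0.26 on the log2 scale, and no comparison passed (lowest edgeR adjusted p 0.377, for quiescence in control cells, where the log2 fold change was 0.36 ± 0.27).

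Foxo4 (chromosome X, 101254528 to 101260873, plus strand) was the steadiest of the factors. It was at 31.0, 25.4 and 21.5 CPM in proliferating control cells, 26.4, 26.9 and 21.98 in proliferating knockdown cells, 33.1, 31.8 and 25.9 in quiescent control cells and 31.0, 31.9 and 28.4 in quiescent knockdown cells. The quiescent knockdown libraries all stood above the proliferating knockdown libraries, by a log2 fold change of 0.28 ± 0.16 that did not pass (adjusted p = 0.242). The 95% interval of its knockdown effect in quiescent cells ran from -0.34 to 0.35, so changes beyond about that size were outside the interval. Foxo6, the remaining FoxO factor and not among the 10 genes, rose in quiescent control cells (log2 fold change 3.19, adjusted p = 0.0348), but from 0 to 4 counts per library to 7 to 38. That call was lost in 3 of the 6 fits without 1 of its libraries, where the adjusted p reached 0.154.

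Ccng2 (chromosome 5, 93267257 to 93276231, plus strand) encodes cyclin G2, an unusual cyclin that slows the cycle and that FoxO proteins raise in resting cells. It was at 57.6, 47.3 and 30.7 CPM in proliferating control cells and at 60.3, 43.2 and 71.0 in quiescent control cells. In knockdown cells it was at 60.2, 57.6 and 52.1 CPM while proliferating and at 65.0, 53.9 and 66.2 in quiescence. Experiment 9 held the lowest proliferating and the highest quiescent control library, and the within-experiment log2 differences for quiescence were 0.07, -0.13 and 1.20. The fitted difference was 0.36 ± 0.22 with an adjusted p of 0.274. With the knockdown, proliferating cells were higher in all 3 experiments, by 0.06, 0.28 and 0.76 on the log2 scale, a fitted 0.32 ± 0.22 that did not pass (adjusted p = 0.9998). Its relative Ccng1 did not pass in any comparison either.

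Sestrins are stress-induced proteins that restrain the growth kinase complex mTORC1 when amino acids are short. Sesn1 (chromosome 10, 41809935 to 41908424, plus strand) was the lowest of the 10 genes, at 5.14 to 8.19 CPM in proliferating control, 5.96 to 9.07 in proliferating knockdown, 6.98 to 7.81 in quiescent control and 6.26 to 8.79 in quiescent knockdown libraries. These ranges overlapped throughout. The log2 fold change for quiescence was 0.17 ± 0.24 in control and 0.01 ± 0.24 in knockdown cells, with a 95% interval from -0.51 to 0.54 in the latter.

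Sesn3 (chromosome 9, 14275067 to 14333101, plus strand), the sestrin most tied to FoxO factors, varied much more. It was at 75.9, 28.4 and 29.95 CPM in proliferating control cells and 79.3, 78.3 and 52.1 in quiescent control cells of experiments 5, 7 and 9. Knockdown cells held Sesn3 at 67.8, 21.1 and 25.9 CPM while proliferating and 31.4, 60.9 and 49.2 in quiescence. Experiment 5 behaved unlike the other pair: its proliferating cells already held Sesn3 at the quiescent level, and its quiescent knockdown library was the lowest of that group. The within-experiment log2 differences for quiescence were therefore 0.06, 1.46 and 0.80 in control and -1.11, 1.52 and 0.92 in knockdown cells. Sesn3 was lower with the knockdown in all 3 experiments in both states, by 1.33, 0.36 and 0.08 on the log2 scale in quiescent cells, but the fitted -0.57 ± 0.48 did not pass (adjusted p = 0.716).

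Sesn2, the remaining sestrin and not among the 10 genes, was at 100.3, 107.9 and 76.5 CPM in quiescent control cells and 57.7, 66.4 and 44.4 in quiescent knockdown cells. Those groups did not overlap, and the log2 fold change was -0.76 ± 0.21, with an adjusted p of 0.153, or 0.0589 with the experiment block. It did not pass the threshold.

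The clearest differences between states were in 3 genes that act at the head of the insulin pathway. Insr (chromosome 8, 3122061 to 3279617, minus strand) encodes the insulin receptor, Irs2 (chromosome 8, 10984681 to 11008458, minus strand) an adaptor that links the receptor to PI3K, and Pik3ip1 (chromosome 11, 3330401 to 3342971, plus strand) a membrane protein that inhibits PI3K. All 3 were higher in quiescence within every experiment, in control and in knockdown cells. In the edgeR fit without the block, none differed between knockdown and control by more than its SE. With the block none passed for the knockdown, though Pik3ip1 was higher in knockdown cells within every experiment and in both states. For quiescence the insulin receptor passed the threshold in control cells. In the edgeR fit to all 12 libraries the other pair did not pass with either hairpin, and with the experiment block it passed with both. Pik3ip1 also passed in both with DESeq2 (adjusted p = 0.0187 in control and 0.0102 in knockdown cells), and Irs2 with DESeq2 in knockdown cells (0.0256). In knockdown cells the pair lay near the threshold: Pik3ip1 passed under 6 of 7 alternatives and Irs2 under 3 of 7.

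Insr was at 81.6, 67.2 and 57.9 CPM in proliferating control cells and at 106.1, 100.8 and 90.1 in quiescent control cells. In knockdown cells it was at 83.4, 66.0 and 65.5 CPM while proliferating and at 86.6, 106.5 and 98.3 in quiescence. Every quiescent library was above every proliferating library, the closest being the knockdown cells of experiment 5. Insr rose in quiescent control cells by 0.52 ± 0.15 on the log2 scale, 1.44-fold, and passed the edgeR test (adjusted p = 0.0319, or 0.0108 under the block). The call was lost without the proliferating control library of experiment 7 (adjusted p = 0.101) or 9 (0.116), and without the quiescent control library of experiment 5 (0.0926) or 7 (0.0656). It was also lost when only the libraries of those groups were fitted (0.0596). In knockdown cells the log2 fold change was 0.44 ± 0.15 with an adjusted p of 0.0647, and 0.45 with 0.0234 under the block. Knockdown left Insr within -0.36 to 0.30 on the log2 scale of the control in quiescent cells (95% interval).

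Irs2 was at 17.5, 17.3 and 61.2 CPM in proliferating control cells and at 100.3, 80.8 and 119.8 in quiescent control cells. Knockdown cells held Irs2 at 18.2, 14.2 and 59.3 CPM while proliferating and at 76.3, 90.3 and 176.0 in quiescence. Experiment 9 was the highest in all 4 groups, and its proliferating libraries held more than 3 times as much Irs2 as those of the other experiments, yet quiescent and proliferating libraries did not overlap with either hairpin. The within-experiment log2 differences for quiescence were 2.51, 2.22 and 0.97 in control and 2.06, 2.65 and 1.57 in knockdown cells.

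The fitted log2 fold change of Irs2 was 1.65 ± 0.61 in control cells (adjusted p = 0.0778) and 1.90 ± 0.61 in knockdown cells (0.0513). With the experiment block it rose by 1.93 (edgeR adjusted p = 0.000599) and 2.07 (0.000421). Without the proliferating library of experiment 9 the value was 2.53 in control cells (0.0211) and 2.82 in knockdown cells (0.015). Over all fits without 1 library it ran from 1.35 to 2.53 in control cells (adjusted p up to 0.227) and from 1.45 to 2.82 in knockdown cells (up to 0.185). The knockdown effect in quiescent cells was 0.19 ± 0.59, with a 95% interval from -1.10 to 1.47, which leaves room for changes of either sign. Irs1, the other main adaptor, did not pass in any comparison, nor did Igf1r, the receptor for insulin-like growth factor.

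Pik3ip1 was at 51.2, 28.5 and 17.6 CPM in proliferating control cells and at 94.3, 58.9 and 59.6 in quiescent control cells. In knockdown cells it was at 58.3, 33.1 and 24.6 CPM while proliferating and at 104.9, 70.1 and 95.2 in quiescence. Experiment 5 was the highest in each group, and the groups of either hairpin did not overlap between states. Within experiments the gain in quiescence was 0.88, 1.04 and 1.76 in control and 0.85, 1.08 and 1.95 in knockdown cells on the log2 scale.

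The fitted log2 fold change of Pik3ip1 was 1.13 ± 0.40 in control cells (edgeR adjusted p = 0.0656) and 1.22 ± 0.39 in knockdown cells (0.0519). With the experiment block it rose by 1.20 (0.00245) and 1.32 (0.00152). Without the proliferating library of experiment 5 the values were 1.62 (0.014) and 1.64 (0.0226). Over all fits without 1 library they ran from 0.83 to 1.62 in control cells (adjusted p up to 0.203) and from 0.98 to 1.64 in knockdown cells (up to 0.157). Pik3ip1 was also higher with the knockdown in all 3 experiments and both states, by 0.15, 0.25 and 0.67 on the log2 scale in quiescent cells, but the fitted 0.35 ± 0.39 did not pass (adjusted p = 0.803). With the experiment block the value was 0.39, which did not pass either (edgeR adjusted p = 0.343).

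Txnip (chromosome 3, 96557957 to 96561883, plus strand) encodes thioredoxin-interacting protein, which limits glucose uptake and is controlled by MondoA and ChREBP as well as by FoxO factors. It was at 190.0, 96.7 and 101.4 CPM in proliferating control cells, and at 187.4, 108.5 and 214.7 in proliferating knockdown cells. In quiescence it was at 129.0, 54.3 and 158.3 CPM in control cells, and at 21.9, 127.9 and 19.1 in knockdown cells. The knockdown groups of both states therefore overlapped their controls, and the quiescent knockdown libraries fell into a pair, at 19.1 and 21.9 CPM, and 1 library, from experiment 7, more than 5 times as high.

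Within experiments 5, 7 and 9 the knockdown difference of Txnip in quiescent cells was -2.55, 1.24 and -3.04 on the log2 scale, with opposite signs. The fitted value was -1.02 ± 0.66, with a 95% interval from -2.47 to 0.44 and an edgeR adjusted p of 0.615. Without the library of experiment 7 it was -2.47, with an adjusted p of 0.0699, which still did not pass. From proliferating to quiescent knockdown cells the differences were -3.09, 0.24 and -3.48. The fitted -1.60 ± 0.67 had an adjusted p of 0.122, and -3.04 with 0.00405 when the quiescent knockdown library of experiment 7 was left out, so that library decided the call. The interaction was -1.41 ± 0.93, with an interval from -3.46 to 0.63. Arrdc4, a close relative of Txnip that MondoA also controls, was at 5.35, 17.0 and 31.8 CPM in the quiescent knockdown libraries of experiments 5, 7 and 9 and did not pass in any comparison.

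**Figure D2:**
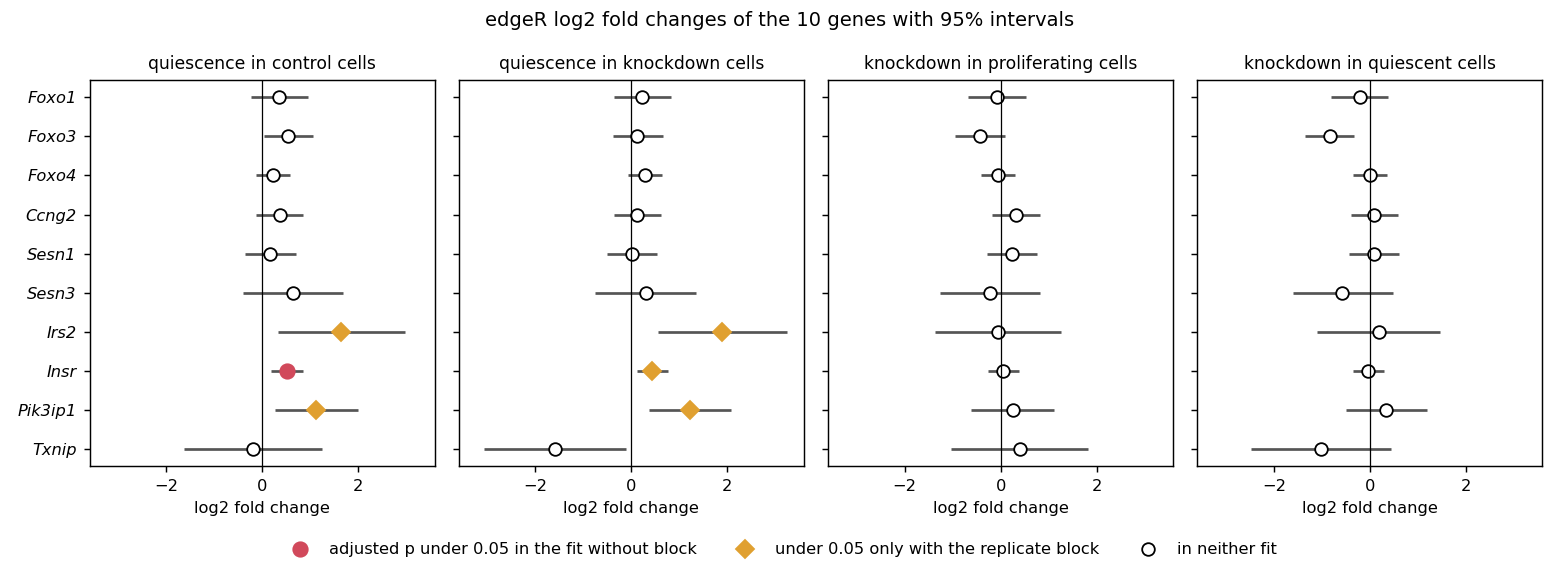
Fitted log2 fold change of each gene (horizontal axis) with its 95% interval in the 4 comparisons between groups, from the edgeR fit without the experiment block. For quiescence the intervals of Irs2, Insr and Pik3ip1 lie above 0 with either hairpin, and for the knockdown in quiescent cells Foxo3 is the gene whose interval lies wholly below 0.

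For the 10 genes as a list, 1 (Insr) passed in the comparison of quiescent with proliferating control cells, where 20.0% of all genes tested passed. Counted as higher, that is 1 of 10 beside 8.33%. With the experiment block 3 passed, Irs2, Insr and Pik3ip1, all higher, against 35.3% of all genes in either direction, 16.8% higher and 18.5% lower. In knockdown cells 0 of 10 passed against 18.4% of all genes (7.59% higher, 10.8% lower). With the block the same 3 genes passed there, against 33.0% in either direction, 15.9% higher and 17.2% lower. Over either direction the share of the 10 genes was not above that of all genes. The ranges of 4 of the 10 genes were higher in quiescence without overlap in control cells (Foxo3, Irs2, Insr and Pik3ip1), a pattern seen in 17.1% of all genes, and of 4 in knockdown cells (Foxo4, Irs2, Insr and Pik3ip1), against 18.1%. None of the 10 was lower without overlap, beside 18.5% of all genes in control and 19.1% in knockdown cells. In control cells 6 of 10 were higher in all 3 experiments and 0 lower, beside 31.5% of all genes in each direction. In knockdown cells 4 were higher in all 3 and 0 lower, beside 28.2% and 27.3%. The median log2 fold change for quiescence over the 10 genes was 0.44 in control and 0.25 in knockdown cells, beside 0.005 over all genes in each.

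For the Stag2 knockdown, 0 of 10 genes passed in proliferating cells, where 0.0242% of all genes passed in edgeR, and 0 of 10 in quiescent cells, where 0.435% passed (0.153% higher and 0.282% lower). With the block 0 of 10 passed in quiescent cells, against 3.55% of all genes (1.59% higher, 1.96% lower). DESeq2 gave 1 of 10 in quiescent cells, Foxo3, and 0 in proliferating cells. Unadjusted p was under 0.05 for 228 of all genes in proliferating and 1489 in quiescent cells. The median log2 fold change of the 10 genes was 0.003 in proliferating and -0.01 in quiescent cells. No gene of the 10 had ranges without overlap in proliferating cells, beside 2.66% of all genes higher and 2.65% lower. In quiescent cells 1, Foxo3, was lower without overlap and 0 higher, beside 8.85% and 10.2%. In proliferating cells Ccng2 and Pik3ip1 were higher in all 3 experiments and Foxo1 and Sesn3 lower, beside 19.8% and 21.3% of all genes. In quiescent cells Pik3ip1 was higher in all 3 experiments, and Foxo1, Foxo3 and Sesn3 were lower in all 3, beside 25.4% and 21.3% of all genes. The test of whether the knockdown effect differed between states passed for 0 of the 10 genes and for 0 of all genes in edgeR, with 219 genes at an unadjusted p under 0.05, and for 6 genes in DESeq2, none of them among the 10.

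**Figure D3:**
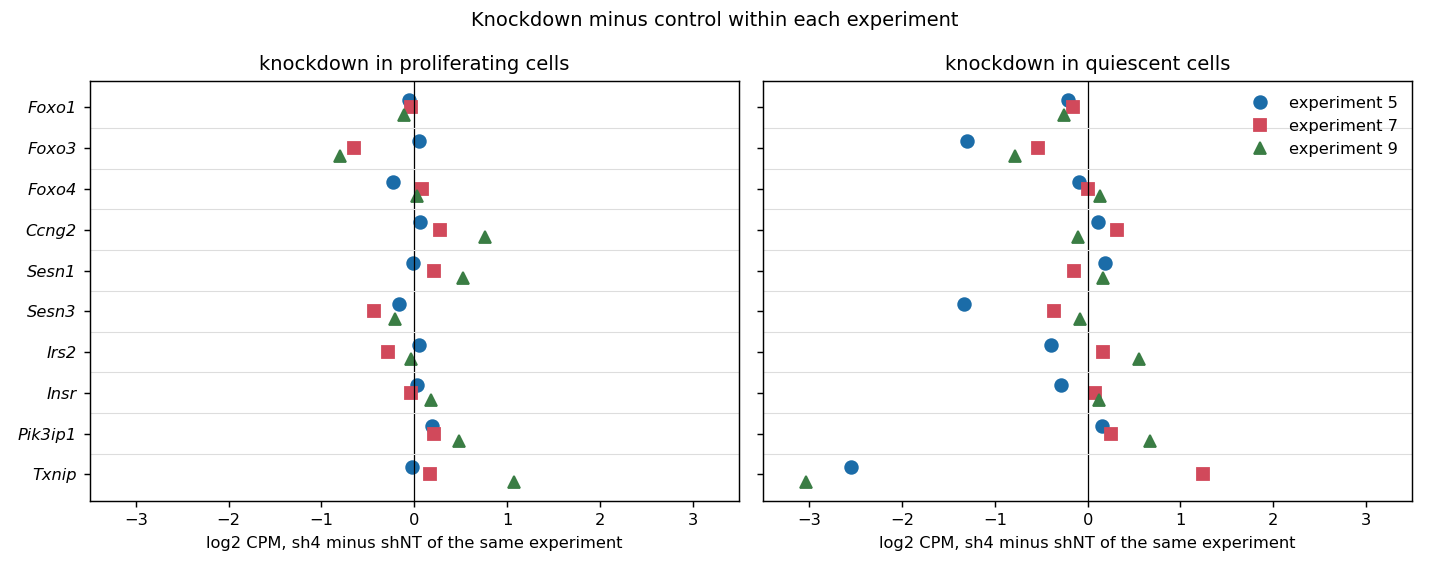
Log2 difference in CPM between knockdown and control cells within each experiment (horizontal axis) for the 10 genes, in proliferating and in quiescent cells. Each point is 1 experiment. Foxo3 is below 0 in all 3 experiments in quiescent cells, while Txnip lies at -2.55, 1.24 and -3.04.

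The variation of each gene over the 12 libraries was split into shares for state, hairpin, experiment and their interactions, as a description of the log2 CPM values. State took the largest share for Insr (71.8%), Irs2 (68.2%), Pik3ip1 (63.0%) and Txnip (28.4%). It was the largest term for 46.4% of all genes, and its median share over all genes was 29.8%, above that of Txnip. Foxo3 was the gene with hairpin as its largest share, at 51.3%, beside a median of 4.76% over all genes, and hairpin was the largest term for 7.72% of all genes. Experiment took the largest share for Sesn1 (58.8%), Foxo4 (46.5%) and Foxo1 (38.9%), and for 32.0% of all genes. For Sesn3 (39.8%) and Ccng2 (36.7%) the largest share was state by experiment, as for 9.8% of all genes. Such a share means that the difference between states was not the same in the 3 experiments. Txnip had 24.0% left after all these terms, against a median of 3.25% over all genes.

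**Figure D4:**
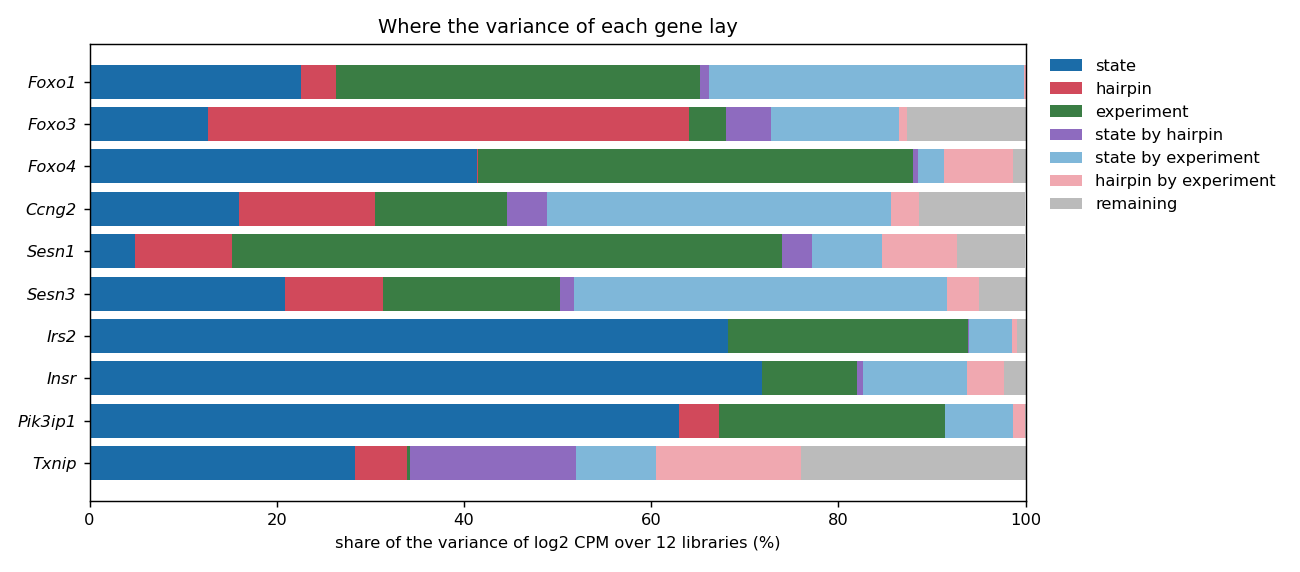
Share of the variance of log2 CPM over the 12 libraries (percent) by state, hairpin, experiment and their interactions, for each of the 10 genes. State is the largest share for Irs2, Insr, Pik3ip1 and Txnip, and hairpin for Foxo3.

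A wider set of 128 genes of the pathway was examined beside the 10, of which 119 were tested. It held relatives of the 10 genes, components of insulin and PI3K signalling, proteins that control FoxO factors, known FoxO targets by function, regulators of Txnip and the partners of sestrins in amino acid sensing. In quiescent control cells 20 of the 119 rose and 8 fell, against 8.33% and 11.7% of all genes, with a median log2 fold change of 0.15. Among the 49 tested FoxO targets in these lists 12 rose and 1 fell, with a median of 0.39. With the experiment block 21 rose and 2 fell, beside 16.8% and 18.5% of all genes. These targets include Ccnd2, which rose, and Ccnd1, which fell, both listed as repressed by FoxO factors. In quiescent knockdown cells 16 of 119 rose and 12 fell, against 7.59% and 10.8% of all genes, and 10 of the 49 targets rose and 2 fell. With the experiment block 50 of the 119 passed in control cells (34 higher, 16 lower), against 35.3% of all genes, and 43 in knockdown cells (30 higher, 13 lower), against 33.0%. The counts of single lists below stand beside these same shares of all genes. The lists were chosen with results of these data known, so the counts describe them only.

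Among targets that halt the cycle, 3 of 12 rose in quiescent control cells and 0 fell (6 and 1 with the block). Cdkn1c (p57) rose by 1.49 on the log2 scale (edgeR adjusted p = 0.0108), Cdkn1a (p21) by 1.20 (0.00421) and Hbp1, a repressor of cell cycle genes, by 0.69 (0.00598). Of the cyclins that FoxO factors repress, Ccnd1 fell by 1.80 (0.000427), from 2149 ± 193 to 617 ± 209 CPM (SD, n = 3), while Ccnd2 rose by 0.80 (0.0386). The Ccnd2 call was lost in 5 of the 6 fits without 1 library, with an adjusted p of up to 0.12.

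Of 15 targets in autophagy and protein breakdown 3 rose and 0 fell (7 and 0 with the block). Gabarapl1, which helps to form autophagosomes, was at 38.4 to 41.1 CPM in proliferating and 106 to 113 in quiescent control libraries and rose by 1.48 on the log2 scale (edgeR adjusted p = 8.18e-05). It rose by 1.64 in knockdown cells (0.00016). Map1lc3b, another protein of the autophagosome membrane, rose by 0.82 (0.0117) and Atg12 by 0.52 (0.0123) in control cells. Without 1 library the Atg12 adjusted p reached 0.0556 in 1 of 6 fits.

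Of 5 apoptosis targets 3 rose in quiescent control cells: Pmaip1 (Noxa) by 1.40 on the log2 scale (edgeR adjusted p = 0.00846), Bcl2l11 (Bim) by 1.10 (0.0098) and Bbc3 (Puma) by 0.54 (0.0364), the last lost in 4 of 6 fits without 1 library. Of 9 targets in metabolism 2 rose (3 with the block), the ubiquitin ligase subunit Fbxo21 by 0.71 (0.00586) and the fat-splitting lipase Pnpla2 by 0.57 (0.00216). Among 6 stress resistance targets 0 passed (1 with the block), with a median of 0.36. Of the 4 tested genes that control Txnip or answer to the same factors, 0 passed.

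Of the 26 tested components of insulin and PI3K signalling 2 rose and 2 fell in quiescent control cells (6 and 4 with the block). Inppl1, a lipid phosphatase, rose by 0.50 on the log2 scale (edgeR adjusted p = 0.0207). Akt1 fell by 0.40 (0.0178) and the related kinase Sgk3 by 0.82 (0.0108). Without 1 library the calls of Inppl1 and Akt1 were each lost in 3 of 6 fits and that of Sgk3 in 1. Of 21 genes for proteins that act on FoxO factors 1 rose and 5 fell (1 and 6 with the block): the deacetylase Sirt2 rose by 0.49 (lost in 4 of 6 fits), and the largest falls were in Skp2, which marks FoxO1 for breakdown (2.23, 0.0012), the 14-3-3 protein Sfn (1.43, 0.00454) and Cdk2 (1.21, 0.00385).

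Of 13 tested sestrin partners 4 rose in quiescent control cells and 0 fell, but with the block 5 rose and 4 fell. Rragd, a small GTPase that relays amino acid signals to mTORC1, rose by 3.61 on the log2 scale (edgeR adjusted p = 0.0136), from 2 to 8 counts per library to 25 to 132. That call was lost in 2 of 6 fits without 1 library. Flcn and Fnip1, which act on that GTPase as a complex, rose by 0.51 (0.00555) and 0.50 (0.0376), and the Fnip1 call was lost in all 6 fits without 1 library, with an adjusted p of up to 0.121.

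For the Stag2 knockdown 0 of the 119 genes passed in either state without the block, and the interaction passed for 0. With the block 3 of 119 passed in quiescent cells, a share not above the 3.55% of all genes (1.96% lower). All 3 were lower: the PI3K subunit Pik3r2 by -0.75 on the log2 scale (edgeR adjusted p = 0.014), and the 14-3-3 proteins Ywhag by -0.88 (0.0203) and Ywhae by -0.44 (0.0485), which hold phosphorylated FoxO in the cytoplasm. Ywhae was at 689 to 706 CPM in quiescent control and 475 to 540 in quiescent knockdown libraries, and the ranges did not overlap for any of these 3 genes.

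**Figure D5:**
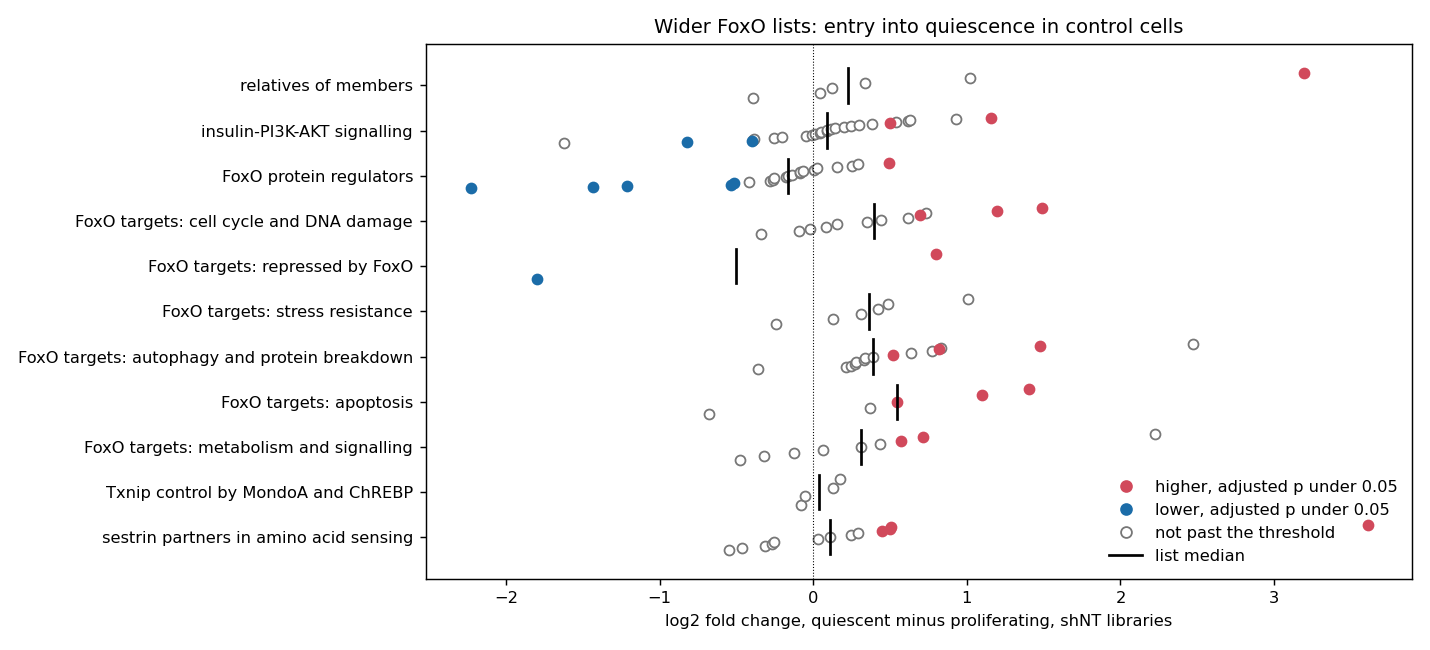
Log2 fold change of each tested gene of the wider lists (horizontal axis) for quiescence in control cells, 1 row a list, with filled points for genes past the adjusted p of 0.05; vertical offsets within a row only separate points. Ccnd1, Skp2 and Sfn are at -1.80, -2.23 and -1.43, and Gabarapl1, Cdkn1a and Pmaip1 at 1.48, 1.20 and 1.40.

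The genes with a pattern most like that of Insr over the 12 libraries, by the root mean square difference of log2 CPM after centring each gene, were Snx13 (0.0685) and Zfp790 (0.0784) of 10291 candidates, beside 0.288 for the variation of Insr itself. Those most like the other pair of insulin pathway genes, chosen after their values were seen, were Tapbp for Pik3ip1 (0.143 beside 0.793) and Trps1 for Irs2 (0.411 beside 1.21). The nearest pattern to Txnip, that of Lrdd, also chosen after its values were seen, was at 0.659 beside 1.11, so no candidate followed Txnip closely.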

How the data were processed

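RNA of 12 libraries (4 groups of 3) was sequenced. What the authors deposited is 1 table of raw, unscaled read counts by gene symbol. The submitters' processing notes name Bowtie, TopHat, HTSeq, DESeq2 and build mm10, with no roles; which annotation and strand setting served for counting is not given in the sources used here, so overlapping genes may share reads. The tests were made with edgeR 4.0.16 under R 4.3.3: filterByExpr (minimum count 10), TMM scaling, 4 group means fitted to all libraries by glmQLFit, 5 contrasts by glmQLFTest, and Benjamini-Hochberg adjustment over all 12406 genes tested with a threshold of 0.05. CPM used TMM-scaled totals; CPM per kb used the exon union of GENCODE M21, whose build GRCm38 is mm10. The numbers 5, 7 and 9 mark shared experiments and batches in the labels; same-numbered libraries deviated together (mean correlation 0.526, lowest 0.225, 18 pairs; other pairs -0.259), so they pair the samples. Replicates differed by more than sampling noise (chi-square per degree of freedom of at least 36.6), so all were kept. Alternatives were the experiment block, other scaling, DESeq2 1.42.0, other filters, fewer libraries and leaving out each library. Fits were tested on simulated data with changes between states only and no shared experiment effect. That test cannot show how the fits without the block handle the pairing. The 10 genes and all lists were chosen with earlier results of these data known. Beyond the 10, genes were named by rule: per list up to 3 highest and 3 lowest of those that passed in control cells for quiescence, any gene past it for the knockdown, the relatives, and the nearest patterns of members past the threshold. Counting error only is covered by library depth. Some list genes are not reported here.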

Additional observations from a re-analysis of the deposited data

How the results depend on the processing

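With experiment as a replicate block, which follows the pairing of the labels, the genes past the threshold went from 54 to 440 for the knockdown in quiescent cells, from 2481 to 4374 for quiescence in control cells and from 2279 to 4096 for quiescence in knockdown cells. Of the 10 genes, those past it went from 1 to 3 and from 0 to 3 for quiescence in control and knockdown cells, and of the wider lists from 28 to 50 and from 28 to 43, and from 0 to 3 for the knockdown in quiescent cells. The block changed no other call among the 10 genes. DESeq2 gave 12 genes instead of 3 for the knockdown in proliferating cells, 390 for that in quiescent cells (1 of the 10 genes and 5 of the wider lists) and 6 instead of 0 for the interaction. For quiescence it gave 2 of the 10 genes in control and 3 in knockdown cells. A fit of only the libraries compared gave 1 gene for the knockdown in proliferating cells, 1582 for quiescence in control cells and 1 of the 10 genes for quiescence in knockdown cells. That last count was also 1 with median-of-ratios scaling, library totals, no filter or a mean count of at least 50.

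Leaving out 1 library gave 1 to 2 genes for the knockdown in proliferating cells, 5 to 60 in quiescent cells, 1394 to 3078 for quiescence in control cells (0 to 2 of the 10 genes, 15 to 34 of the wider lists) and 1186 to 2029 in knockdown cells (0 to 2 and 14 to 26). Values near 0 changed sign. For the knockdown in quiescent cells Foxo4 was -0.0096 without a filter and -0.0059 with only the libraries compared, Insr was 0.0092 with library totals, and for quiescence in knockdown cells Sesn1 was -0.0003 without a filter. The fits without 1 library had no experiment block and left libraries without their partner from the same experiment. Their values can therefore also carry differences between experiments. Within experiments the knockdown difference in proliferating cells kept its sign for Foxo1 (-0.06, -0.03 and -0.11), Sesn3 and Pik3ip1. It did not for Foxo4, Irs2 and Insr. On leaving out 1 library the log2 fold changes that could change sign ran as follows. For the knockdown in proliferating cells they were Foxo1 -0.38 to 0.25, Foxo4 -0.17 to 0.095, Sesn3 -0.93 to 0.39, Irs2 -0.99 to 0.81, Insr -0.068 to 0.20 and Pik3ip1 -0.17 to 0.75. In quiescent cells they were Foxo4 -0.093 to 0.072, Ccng2 -0.094 to 0.25, Sesn1 -0.012 to 0.22, Irs2 -0.27 to 0.41 and Insr -0.097 to 0.046. For quiescence they were Txnip -0.50 to 0.20 in control cells, and Foxo3 -0.13 to 0.42 and Sesn1 -0.14 to 0.16 in knockdown cells. For the interaction they were Foxo1 -0.46 to 0.16, Foxo4 -0.088 to 0.18, Sesn3 -0.96 to 0.36, Irs2 -0.63 to 1.17, Insr -0.23 to 0.038 and Pik3ip1 -0.40 to 0.52. The causes were not tested. With 3 libraries a group, 1 hairpin and 1 cell line, effects on Irs2, Sesn3 and Txnip may have been missed, and not only small ones. For the knockdown in quiescent cells their 95% intervals on the log2 scale ran from -1.1 to 1.47, -1.61 to 0.48 and -2.47 to 0.44. No smallest detectable effect was computed.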
